A study of Rattus norvegicus with 20 samples.

Results

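Triphenyl phosphate is an organophosphate ester added to plastics, as a plasticiser and to slow burning. The comparison described here asked what any of 3 lower doses of it did to gene expression in rat liver. The 9 arrays of rats given 55, 110 or 220 mg/kg (3 arrays each) were pooled as 1 group and set against the 5 arrays of rats given corn oil alone (0 mg/kg, the vehicle group). These 14 arrays are all members of both groups, out of 20 arrays in the series, and were chosen by the dose in their titles, not by any measured value. All rats were male and Harlan Sprague-Dawley, were dosed by oral gavage with corn oil as the carrier on 4 days, and gave liver on day 5. The 440 and 881 mg/kg groups (3 arrays each) did not enter the tests. Their means against the same vehicle arrays are given only for a few genes, and 881 mg/kg replicate 2 stood apart from all other arrays by a Gapdh 3' minus 5' difference of 5.24 (log2). The treatment text gives 3 rats per group, but there are 5 vehicle arrays, and no label says which animal an array came from. The p-values therefore cover the spread between arrays, some of which may be technical. Pieces of the left liver lobe hold hepatocytes together with the other cells of the liver.

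As background, the liver clock is a loop of transcription factors. BMAL1 with CLOCK or its paralogue NPAS2 activates genes at E-box motifs, among them the Period and Cryptochrome genes, whose proteins repress that activation, and the nuclear receptors NR1D1 and NR1D2, which repress Bmal1 through motifs that ROR receptors use to activate it. DBP, TEF and HLF carry the rhythm to output genes through D-box motifs, where NFIL3 represses. The liver also senses foreign compounds through the receptors CAR and PXR, which induce enzymes and transporters that clear them, and it adjusts lipid handling in part through PPAR alpha, a receptor active in fasting.

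Each array held log2 expression values after RMA, and a difference of 1 on this scale is a 2-fold difference. Each of 14217 genes was read by 1 probe set, the one whose mean over the 20 arrays was highest. Each array's median correlation with the other 13 lay between 0.9917 and 0.9940. Markers of hepatocytes, such as the albumin gene Alb and the transthyretin gene Ttr, had a mean level of 14.36 to 14.43 on the pooled-dose arrays and 14.40 to 14.45 on the vehicle arrays, and limma called 0 of the 13 measured, with 0 at an unadjusted p under 0.05. No difference in RNA quality was detected: the Gapdh 3' minus 5' difference was 1.13 ± 0.27 at the pooled doses and 1.15 ± 0.24 in vehicle (SD, n = 9 and 5, two-sided exact permutation p = 0.876, the same after adjustment over 4 measures). The same difference for beta-actin was 2.23 ± 0.30 at the pooled doses and 2.13 ± 0.31 in vehicle (exact permutation p = 0.562, adjusted p = 0.876). The groups lay apart on the main axis of variation over all genes, which held 27.6% of the variance: pooled-dose arrays ran from 3.66 to 13.99 on it and vehicle arrays from -16.85 to -12.09. The hour of day at which each liver was taken and the hybridisation batch of each array are, in the sources used here, not given, so whether either differed between the groups was not tested.

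**Figure D1:**
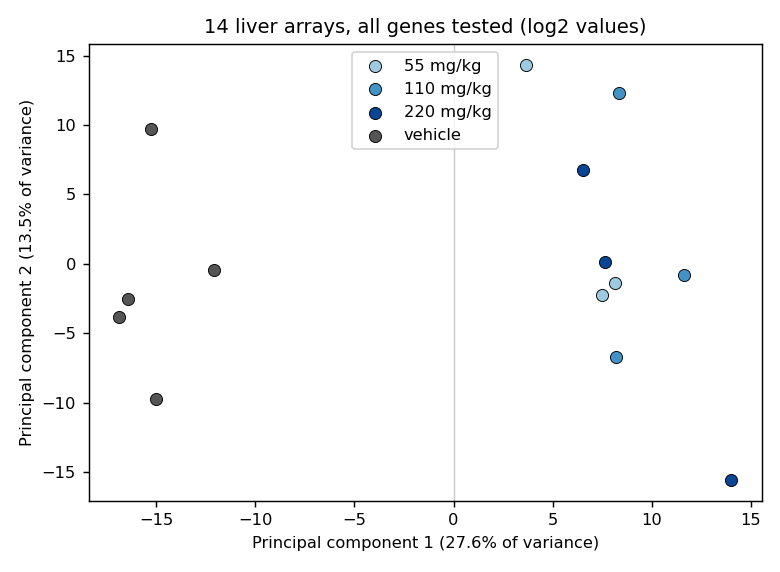
The 14 arrays on the first pair of principal components of all genes tested (log2 values), with the share of variance on each axis; each point is 1 array, coloured by dose. All 9 dosed arrays lie between 3.66 and 13.99 on the horizontal axis and all 5 vehicle arrays between -16.85 and -12.09. On that axis the 55 mg/kg arrays lie at 3.66 to 8.13, the 110 mg/kg arrays at 8.19 to 11.61 and the 220 mg/kg arrays at 6.55 to 13.99.

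Pooling the doses, 1039 of 14217 genes rose (7.31%) and 507 fell (3.57%) in limma's test at an adjusted p under 0.05, which is the rule for every call below. Together that was 1546 genes, or 10.9% of those tested, and 3581 (25.2%) had an unadjusted p under 0.05. Most called changes were small. The median size was 0.31 among genes that rose and 0.35 among genes that fell, and 46 genes (0.324%) were both called and changed at least 2-fold, 27 up (0.19%) and 19 down (0.134%). For 581 genes (4.09%) the 9 dosed and 5 vehicle arrays did not overlap. All 5 vehicle arrays served every comparison with vehicle here. Among single arrays left out, vehicle replicate 4 gave the lowest counts, with 684 genes rising and 307 falling without it, and 320 fell when 110 mg/kg was left out. The 7.31% and 3.57% are the background for each count of list members below.

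Each dose on its own called fewer genes against the same vehicle arrays: 524 at 55 mg/kg (3.69%), 572 at 110 mg/kg (4.02%) and 610 at 220 mg/kg (4.29%). At 55 mg/kg 365 genes rose (2.57%) and 159 fell (1.12%), at 110 mg/kg 373 rose (2.62%) and 199 fell (1.4%), and at 220 mg/kg 402 rose (2.83%) and 208 fell (1.46%). The standard error of a log2 change had a median of 0.0729 in the pooled comparison and 0.0961 for a single dose. With pooling, the 95% interval of the change lay within 0.5 of 0 for 90.8% of genes, against 85.9%, 84.9% and 84.2% at 55, 110 and 220 mg/kg. The counts at single doses rested on few arrays, and leaving out 1 array in turn gave 161 to 601 calls at 55 mg/kg (lowest without 55 mg/kg replicate 2), 267 to 673 at 110 mg/kg (lowest without 110 mg/kg replicate 3) and 244 to 619 at 220 mg/kg (lowest without 220 mg/kg replicate 2). Without vehicle replicate 4 the counts were 280, 356 and 377 at the 3 doses, and at 55 mg/kg it was 313 without vehicle replicate 2. Without 55 mg/kg replicate 1 or 3 the count at that dose was 232 or 176, without 110 mg/kg replicate 1 or 2 it was 307 or 379, and without 220 mg/kg replicate 3 it was 309.

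Whether the 3 doses differed from each other was asked on the 9 dosed arrays alone, with no vehicle array in the fit. No gene was called, either by limma's F test of the 3 dose means or by its test of a trend over the dose steps (0 of 14217 in each). At an unadjusted p under 0.05 there were 465 genes (3.27%) by the F test and 735 (5.17%) by the trend. Among the 1546 genes called in the pooled comparison these were 87 (5.63%) and 126 (8.15%). The median change of the genes that rose was 0.31, 0.32 and 0.32 at 55, 110 and 220 mg/kg, and that of the genes that fell was -0.33, -0.37 and -0.36. These medians describe genes picked from the same arrays and carry no test.

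Genes of the circadian clock changed in both directions. Of 18 measured members of the clock list, 8 rose and 6 fell, against 7.31% and 3.57% of all genes. For 10 of the 18 the groups did not overlap, against 4.09% of all genes. Leaving out any 1 array gave 8 and 6 again. The median change of the list was 0.42, beside 0.0024 over all genes. The list was chosen with earlier results of these data known, so its count describes these arrays.

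The clock's activators were lower at the pooled doses. Bmal1, the core activator, read 6.75, 7.01 and 7.49 (lowest, median and highest of 9 arrays) at the pooled doses, against 8.70, 7.90, 8.58, 8.64 and 8.40 on the 5 vehicle arrays. All dosed arrays lay below all vehicle arrays, and Bmal1 fell by 1.39 ± 0.13 on the log2 scale (SE, limma adjusted p = 3.37e-06). Npas2, which can stand in for CLOCK as its partner, read 7.20, 7.59 and 7.91 at the pooled doses, against 8.83, 8.65, 8.68, 8.72 and 8.74 in vehicle. It too had no overlap between the groups and fell by 1.10 ± 0.10 (adjusted p = 3.37e-06). Clock itself fell by 0.31 ± 0.07 (adjusted p = 0.0115), with overlapping arrays. Rora, the ROR receptor that activates Bmal1, fell by 0.57 ± 0.10 (adjusted p = 0.00115).

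Among the repressors, most members changed in the other direction. Nr1d1, which encodes REV-ERB alpha, read 8.37, 9.05 and 9.31 at the pooled doses, against 6.42, 7.72, 6.66, 6.67 and 6.39 in vehicle. Vehicle replicate 2 was the highest vehicle array and still lay below every dosed array, and the gene rose 4.46-fold (log2 change 2.16 ± 0.19, adjusted p = 3.31e-06). Its paralogue Nr1d2 read 9.98, 10.06 and 10.26 at the pooled doses, against 8.14, 9.18, 8.40, 8.38 and 8.32 in vehicle, a rise of 1.6 ± 0.12 (adjusted p = 6.38e-07). Again vehicle replicate 2 was the highest of the vehicle arrays. One of the other Nr1d2 probe sets was called in the same direction (1.48) and the other was not (0.14).

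Among the Period and Cryptochrome genes, Per3 rose by 1.78 ± 0.15 (adjusted p = 2.40e-06), with levels of 6.46, 6.89 and 7.42 at the pooled doses against 5.10, 4.85, 5.13, 5.24 and 5.51 in vehicle. The groups did not overlap on that probe set, but the gene's other probe set, at 0.05, was not called. Cry2 rose by 0.97 ± 0.08 and Per1 by 0.50 ± 0.10 (adjusted p = 2.20e-06 and 0.00348), whereas Cry1 fell by 0.81 ± 0.10 (adjusted p = 0.000121). Per2 was not called (-0.07, 95% interval -0.17 to 0.03). The 2 Cryptochrome genes, whose proteins both repress the activators, moved in opposite directions.

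The output arm held the single largest increase of the comparison. Dbp, a D-box activator, read 9.34, 9.69 and 10.65 at the pooled doses, against 5.80, 6.34, 5.96, 5.97 and 5.73 in vehicle. Even the lowest dosed array stood far above the highest vehicle array, and Dbp rose 14.5-fold (log2 change 3.86 ± 0.19, adjusted p = 2.81e-09). Its relative Tef rose by 0.82 ± 0.08 (adjusted p = 5.26e-06), while Hlf, the remaining member of that family, was not called (0.02, 95% interval -0.20 to 0.24). Nfil3, the repressor at the same motif, fell by 1.39 ± 0.17 (adjusted p = 8.21e-05), with 8.19, 8.65 and 9.17 at the pooled doses against 9.68, 10.04, 9.70, 10.37 and 10.65 in vehicle. Bhlhe40, a repressor at E-boxes, rose by 1.04 ± 0.24 (adjusted p = 0.00896), and its paralogue Bhlhe41 and the ubiquitin protease gene Usp2 were not called (0.34 and 0.63).

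**Figure D2:**
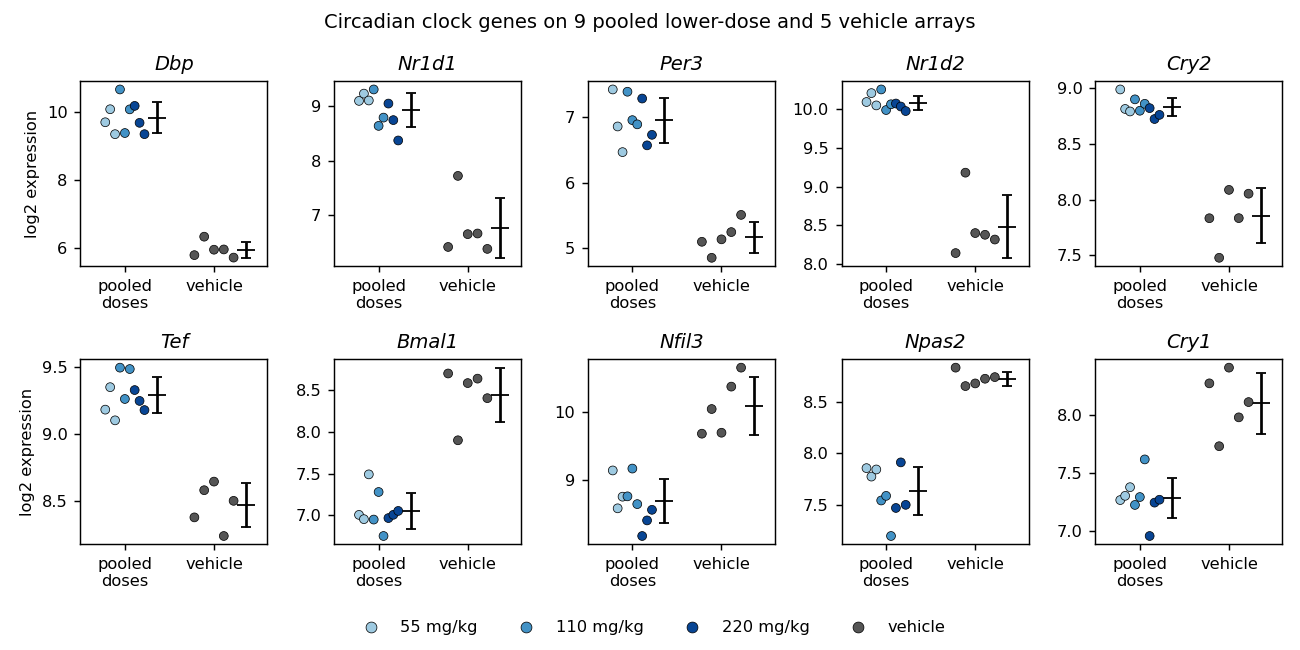
Log2 expression of 10 clock genes on the 9 pooled-dose arrays (left, coloured by dose) and the 5 vehicle arrays (right, grey); each point is 1 array, and the bar and whiskers are the group mean and SD. The vertical axes differ between genes and do not start at 0. In all 10 panels the groups are separate, with Dbp between 9.34 and 10.65 at the pooled doses and between 5.73 and 6.34 in vehicle.

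The change was near level over 55, 110 and 220 mg/kg for some clock genes and uneven for others. Dbp was 3.74, 4.07 and 3.77 above vehicle at these doses, and over the 9 dosed arrays its trend was 0.01 per dose step (95% interval -0.32 to 0.35). Nr1d2 was 1.64, 1.62 and 1.55 above vehicle, with a trend of -0.04 per step (-0.14 to 0.05). Bmal1 stood at -1.29, -1.45 and -1.44, with a trend of -0.07 per step (-0.24 to 0.10). Bhlhe40 was 0.60, 1.52 and 1.02 above vehicle and Per1 was 0.30, 0.63 and 0.58 above it. The median over the list was 0.16, 0.47 and 0.48 at the 3 doses. Of the 18 clock genes, 3 had an unadjusted trend p under 0.05, where 5.17% of all genes did, among them Nr1d1 with a trend of -0.21 per step (-0.41 to -0.02) and Nfil3 with -0.22 ± 0.09. At 440 and 881 mg/kg, against the same vehicle arrays, Dbp was 4.50 and 3.83 higher and Bmal1 was -2.43 and -1.84 from vehicle.

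The promoters of 4 called clock genes are printed to show the motifs through which this loop is known to work. They are RefSeq windows on GRCr8, from 250 bases before to 50 after a gene's start, 5′ to 3′ on the gene's strand. Capitals mark the E-box CACGTG, or the receptor motif AGGTCA, searched on both strands together with the D-box TTATGNAA; none of these 4 windows held more than 1 match. The Bmal1 window is chr1:176766078-176766377 (+), that of Nr1d1 is the second of its 2 windows, chr10:84229405-84229704 (-), that of Tef is chr7:115206577-115206876 (+) and that of Bhlhe40 is chr4:143174200-143174499 (+).
Bmal1: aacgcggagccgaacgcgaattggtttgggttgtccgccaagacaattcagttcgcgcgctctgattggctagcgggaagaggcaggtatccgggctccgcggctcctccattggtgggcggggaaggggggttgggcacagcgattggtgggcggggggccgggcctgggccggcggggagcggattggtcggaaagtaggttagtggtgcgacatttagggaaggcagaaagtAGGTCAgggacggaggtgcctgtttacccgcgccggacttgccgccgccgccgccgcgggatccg
Nr1d1: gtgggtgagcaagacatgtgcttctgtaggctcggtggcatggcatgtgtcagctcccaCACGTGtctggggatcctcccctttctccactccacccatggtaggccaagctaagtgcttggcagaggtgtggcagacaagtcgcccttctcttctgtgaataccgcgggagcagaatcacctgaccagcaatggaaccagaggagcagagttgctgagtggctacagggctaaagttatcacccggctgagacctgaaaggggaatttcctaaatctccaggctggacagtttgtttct
Tef: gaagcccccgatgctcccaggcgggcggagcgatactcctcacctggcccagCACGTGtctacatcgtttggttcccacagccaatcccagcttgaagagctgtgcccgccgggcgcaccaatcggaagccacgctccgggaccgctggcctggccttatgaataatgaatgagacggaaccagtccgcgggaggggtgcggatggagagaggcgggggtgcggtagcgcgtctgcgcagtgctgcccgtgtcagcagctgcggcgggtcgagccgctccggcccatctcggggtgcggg
Bhlhe40: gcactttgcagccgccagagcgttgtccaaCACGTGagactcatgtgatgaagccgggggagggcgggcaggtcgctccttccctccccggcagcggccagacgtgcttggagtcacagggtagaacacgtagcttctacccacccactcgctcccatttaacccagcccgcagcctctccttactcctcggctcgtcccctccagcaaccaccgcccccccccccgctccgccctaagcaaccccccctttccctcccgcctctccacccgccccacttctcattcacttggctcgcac
The AGGTCA match in Bmal1, which fell, begins at -15, counted from the gene's start. The CACGTG matches in Nr1d1, Tef and Bhlhe40, which rose, begin at -191, -198 and -220. Windows were found for 16 of the 18 clock genes. An E-box stood in 3 of the 8 rising genes with a window and in 0 of the 5 falling ones, and also in Bhlhe41, which was not called. A D-box stood in 1 of the 16, Per2. AGGTCA stood in 3: Bmal1, Nr1d2, which rose (at -187), and Usp2, which was not called (at -70). Over all 33469 windows, 6.42% held CACGTG, 3.66% TTATGNAA and 16.2% AGGTCA. A match describes letters in the window and shows no binding.

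Outside the clock list, the largest increase was in Hsd17b2, which oxidises active sex steroids to weaker ones. It read 12.46, 12.83 and 13.44 at the pooled doses, against 10.39, 10.86, 10.34, 10.45 and 10.42 in vehicle. No dosed array came near the vehicle range, and the gene rose 5.24-fold (log2 change 2.39 ± 0.13, adjusted p = 1.30e-08). It was 2.44, 2.48 and 2.25 above vehicle at 55, 110 and 220 mg/kg. Cish, a STAT5-induced inhibitor of cytokine and growth hormone signalling, rose by 1.94 ± 0.21 (adjusted p = 2.21e-05), with 8.17, 8.69 and 9.80 at the pooled doses against 6.73, 6.79, 6.61, 6.83 and 6.83 in vehicle. Cish read 8.72, 6.73 and 6.82 at 440 mg/kg and 6.51, 6.91 and 8.67 at 881 mg/kg, so that at each of these doses 1 array stood high and the others lay near the vehicle arrays. Socs2, another STAT5-induced inhibitor, fell by 0.64 ± 0.19 (adjusted p = 0.0407). That call was lost in 13 of 27 alternatives, among them without any 1 of vehicle replicates 1 to 4, 110 mg/kg replicate 2, 220 mg/kg replicates 2 and 3 and 55 mg/kg replicates 2 and 3 (adjusted p up to 0.12).

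Mt2A, a metallothionein that binds zinc and copper, read 13.88, 14.13 and 14.34 at the pooled doses, against 11.37, 13.51, 12.98, 12.85 and 12.58 in vehicle. The dosed arrays were tightly grouped and the vehicle arrays spread widely, and the gene rose by 1.47 ± 0.23 (adjusted p = 0.000534). Dusp1, a phosphatase that switches off MAP kinases, rose by 1.84 ± 0.43 (adjusted p = 0.0109). Its highest dosed array, 110 mg/kg replicate 1 at 14.13, lay well above the next, 12.31. The gene's call was lost when its 2 probe sets were averaged and with replicate number as a block. Nfe2, a transcription factor best known from blood cell precursors, rose by 1.69 ± 0.34 (adjusted p = 0.0037), with overlapping arrays.

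The largest decreases included Slc6a6, the taurine transporter. It read 7.12, 8.0 and 9.11 at the pooled doses, against 10.41, 10.73, 10.09, 10.13 and 10.13 in vehicle. The groups did not overlap and the gene fell by 2.38 ± 0.25 (adjusted p = 1.41e-05), with a second probe set also called (-1.94). Tubb2a, a beta-tubulin, read 9.85, 10.73 and 11.10 at the pooled doses, against 12.60, 12.40, 12.65, 12.69 and 12.39 in vehicle, and fell by 1.94 ± 0.15 (adjusted p = 6.38e-07). Cdkn1a, which encodes the cell cycle inhibitor p21, read 7.82, 8.27 and 8.71 at the pooled doses, against 10.31, 10.28, 10.76, 10.61 and 9.61 in vehicle. Here too the groups were separate, and the gene fell by 2.08 ± 0.17 (adjusted p = 1.57e-06). The second Cdkn1a probe set was called in the same direction (-0.65). Egr1, an immediate early transcription factor, fell by 2.11 ± 0.32 (adjusted p = 0.000479). Further down the same ranking, the phosphate transporter gene Slc34a2 fell by 1.48 ± 0.20, the galectin-like gene Lgalsl by 1.28 ± 0.12, and the G protein regulator gene Rgs16 by 1.30 ± 0.31. The last of these lost its call without the 220 mg/kg group and with replicate number as a block.

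**Figure D3:**
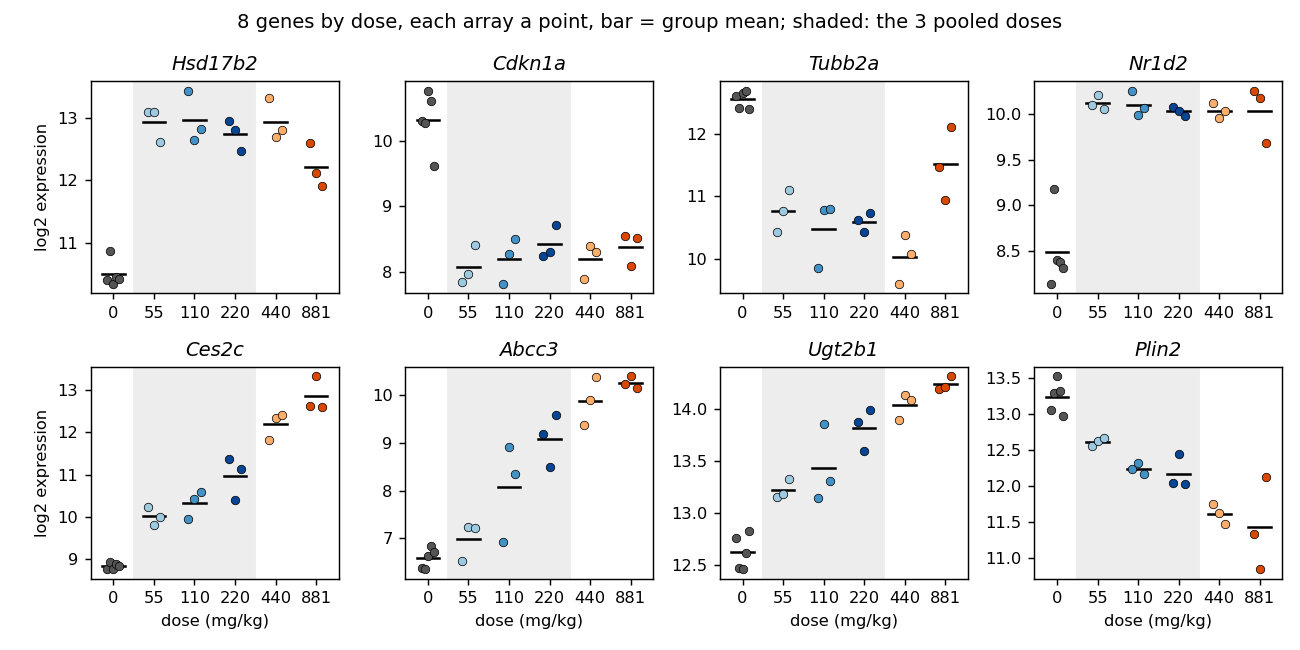
Log2 expression of 8 genes over all 6 dose groups in mg/kg, with vehicle (0) at the left; each point is 1 array, bars are group means, and the shaded band marks the 3 pooled doses. The vertical axes differ and do not start at 0. Hsd17b2, Cdkn1a, Tubb2a and Nr1d2 stand apart from vehicle by similar amounts at 55, 110 and 220 mg/kg, whereas the means of Ces2c, Abcc3 and Ugt2b1 climb and that of Plin2 declines with each of these doses.

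Of 29 measured genes of fatty acid and triglyceride synthesis, 6 fell and 2 rose, where 3.57% of all genes fell and 7.31% rose, and the median change was -0.08. The count that rose is near the share over all genes. Scd, a desaturase that puts the first double bond into stearoyl-CoA, read 8.04, 8.91 and 10.03 at the pooled doses, against 11.29, 11.82, 12.15, 10.24 and 10.92 in vehicle. The highest dosed array lay just below the lowest vehicle array, and Scd fell by 2.44 ± 0.31 (adjusted p = 0.000121). Lpin1, a phosphatidate phosphatase on the route to triglyceride, fell by 1.28 ± 0.21 (adjusted p = 0.00101), while its relative Lpin2 rose by 0.67 ± 0.10. The acyl-CoA synthetases Acsl3 and Acsl5 fell by 0.48 and 0.43, the elongase gene Elovl5 by 0.26 and the lipogenic factor gene Mlxipl by 0.29. Thrsp, a lipogenic gene responsive to thyroid hormone, rose by 0.70 ± 0.18 (adjusted p = 0.0173). That call was lost without vehicle replicate 4, without 110 or 220 mg/kg and with replicate number as a block (adjusted p up to 0.186).

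Of 28 measured PPAR alpha targets, 9 fell and 2 rose, against 3.57% and 7.31% of all genes, with a median change of -0.11, and here too the count that rose is near that share. The count of 9 was 4 without vehicle replicate 4, and 5 without the 110 or the 220 mg/kg group or with replicate number as a block. Angptl4, an inhibitor of lipoprotein lipase, read 9.56, 10.04 and 10.45 at the pooled doses, against 11.50, 11.62, 11.48, 11.52 and 10.87 in vehicle. Vehicle replicate 5 was the lowest vehicle array, the groups stayed separate, and Angptl4 fell by 1.37 ± 0.14 (adjusted p = 1.41e-05). Pdk4, a kinase that holds back glucose oxidation, fell by 1.25 ± 0.17 (adjusted p = 0.000177). Plin2, which coats lipid droplets, read 12.03, 12.32 and 12.67 at the pooled doses, against 13.06, 13.30, 13.53, 13.33 and 12.98 in vehicle, and fell by 0.90 ± 0.12 (adjusted p = 0.000137). Its other probe set, at -0.24, was not called. The fatty acid hydroxylase gene Cyp4a1 fell by 0.49 ± 0.12 (adjusted p = 0.0159). That call was lost without vehicle replicate 4 and without 110 or 220 mg/kg (adjusted p up to 0.0704). Other genes of the same list, the fatty acid uptake receptor gene Cd36 and the peroxisomal or mitochondrial genes Ehhadh, Acot4, Cpt1b and Pex11a, fell by 0.30 to 0.48, and Ech1 rose by 0.28.

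The targets of CAR and PXR included genes whose change was larger at each next dose, though no trend was called. Of 23 measured, 8 rose and 2 fell, against 7.31% and 3.57% of all genes, with a median change of 0.14. The median over the list was 0.16, 0.05 and 0.10 at 55, 110 and 220 mg/kg, so the list as a whole did not climb. Counted in either direction, 7 of the 23 had an unadjusted trend p under 0.05, where 5.17% of all genes did. The count of 8 was sensitive to single arrays. It was 4 without any 1 of vehicle replicates 2, 3 and 4, 110 mg/kg replicates 2 and 3 and 220 mg/kg replicate 1, and 5 without vehicle replicate 5, 220 mg/kg replicate 2 or 3 or 55 mg/kg replicate 3. It was also 4 without the 220 mg/kg group or with replicate number as a block, and 5 without the 110 mg/kg group. Ces2c, a carboxylesterase, read 9.79, 10.40 and 11.37 at the pooled doses, against 8.76, 8.92, 8.75, 8.87 and 8.82 in vehicle. All dosed arrays were higher, and Ces2c rose 3.04-fold (log2 change 1.6 ± 0.21, adjusted p = 0.000137). It was 1.18, 1.49 and 2.14 above vehicle at 55, 110 and 220 mg/kg, a trend of 0.48 per step (95% interval 0.23 to 0.73, unadjusted p = 0.00146, limma adjusted p = 0.82), and 3.37 and 4.03 above it at 440 and 881 mg/kg.

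Abcc3, an efflux transporter of conjugates, read 6.52, 8.36 and 9.57 at the pooled doses, against 6.38, 6.36, 6.63, 6.83 and 6.72 in vehicle. The lowest dosed array lay within the vehicle range and the others above it. Its change of 1.46 ± 0.42 was called (adjusted p = 0.0347) but averaged over unlike doses, with 0.41, 1.48 and 2.49 at 55, 110 and 220 mg/kg and a trend of 1.04 per step (0.59 to 1.5, unadjusted p = 0.000315, limma adjusted p = 0.746). The call was lost in 13 of 27 alternatives, among them without any 1 of the 5 vehicle arrays, 110 mg/kg replicates 2 and 3 and 220 mg/kg replicates 1 and 2 (adjusted p up to 0.105). Ugt2b1, a glucuronosyltransferase, rose by 0.86 ± 0.14 (adjusted p = 0.000974), with 0.59, 0.81 and 1.19 at the 3 doses. The multidrug transporter gene Abcb1a rose by 0.92 ± 0.12 (adjusted p = 0.000106). Por, the reductase that feeds electrons to cytochromes P450, rose by 0.68 ± 0.11 (adjusted p = 0.000955), with 0.65, 0.79 and 0.61 at the 3 doses. Cyp3a23-3a1, a classical PXR target in rats, rose by 0.43 ± 0.13 (adjusted p = 0.0364), a call lost in 13 of 27 alternatives, among them without any 1 of vehicle replicates 1 to 4, 110 mg/kg replicates 2 and 3, the 3 arrays of 220 mg/kg and 55 mg/kg replicate 3. The gene of PXR itself, Nr1i2, fell by 0.29 ± 0.05 (adjusted p = 0.00256), with no overlap between the groups. Cyp2a1, the other gene of the list that fell, read 10.90, 11.13 and 11.39 at the pooled doses. It read 11.43, 11.45, 11.63, 11.30 and 11.48 in vehicle, so the ranges overlapped.

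Of 22 measured NRF2 targets, which answer oxidative and electrophilic stress, 5 rose and 0 fell, against 7.31% and 3.57% of all genes. The median change was 0.25. The count that rose was 3 without vehicle replicate 2 or 4 or without the 220 mg/kg group. It includes Trib3, which also counts among the stress genes below. The gene of NRF2 itself, Nfe2l2, fell by 0.27 ± 0.08 (adjusted p = 0.0428), a call lost in 17 of 27 alternatives (adjusted p up to 0.154). Akr7a3, an aldehyde reductase, rose by 0.85 ± 0.23 (adjusted p = 0.0243). That call was lost without vehicle replicate 2 or 4, without 220 mg/kg and with limma's trend and robust options (adjusted p up to 0.0735). The quinone reductase gene Nqo1 (0.56, 95% interval 0.08 to 1.03) and the heme oxygenase gene Hmox1 (0.33, 0.09 to 0.57) were not called. Of 19 measured glutathione transferases 4 rose, where 7.31% of all genes did. Mgst2 led with 0.41 ± 0.08 (adjusted p = 0.00366), and Gsta3 (0.63, -0.18 to 1.44) and Gstp1 (-0.03, -0.42 to 0.35) were not called. The count of 4 was 1 without vehicle replicate 2, 3 or 4 or 220 mg/kg replicate 1 or 3, and 2 without vehicle replicate 5, 110 mg/kg replicate 3, 220 mg/kg replicate 2 or either of 55 mg/kg replicates 2 and 3. It was also 1 without the 220 mg/kg group or with replicate number as a block, and 2 without the 55 mg/kg group or in the model of all 6 dose groups. Of 9 measured AhR targets 1 rose and 1 fell, against 7.31% and 3.57% of all genes, with a median change of -0.11. The 1 that fell was Nfe2l2. Cyp1a1 rose by 0.43 ± 0.11 from a low level (adjusted p = 0.0147), a call lost in 2 of 27 alternatives, among them the model of all 6 dose groups (adjusted p up to 0.343). Cyp1a2, another AhR target, was not called when pooled (-0.23, 95% interval -0.44 to -0.02). At 220 mg/kg alone it was called as falling (-0.49, adjusted p = 0.00505). The aldo-keto reductase gene Akr1b7 was not called (0.29, -0.70 to 1.27), and its 9 dosed arrays were uneven, at 4.10, 4.31 and 7.37 against 4.39, 4.92, 4.87, 4.70 and 4.64 in vehicle.

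Genes of cellular stress followed. Of 28 measured genes of the integrated stress response and of the endoplasmic reticulum, 10 rose and 0 fell, with a median of 0.22. Over all genes 7.31% rose and 3.57% fell. The count that rose was 6 without vehicle replicate 2 and 5 with replicate number as a block. Trib3, a pseudokinase induced by ATF4, read 8.91, 10.11 and 11.11 at the pooled doses, against 8.03, 8.54, 9.57, 8.63 and 8.26 in vehicle. The ranges overlapped through vehicle replicate 3, and Trib3 rose by 1.43 ± 0.30 (adjusted p = 0.00567) with both of its other probe sets called in the same direction. Ddit4, an inhibitor of mTORC1, rose by 1.72 ± 0.35 (adjusted p = 0.00408), and Chac1, which degrades glutathione, by 1.24 ± 0.23 (adjusted p = 0.00226). Atf4 itself rose by 0.49 ± 0.09 (adjusted p = 0.00178) and Ddit3, which encodes CHOP, by 0.50 ± 0.12 (adjusted p = 0.0108). Herpud1, a gene of protein degradation at the endoplasmic reticulum, rose by 0.33 ± 0.09 (adjusted p = 0.0201).

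The p53 targets did not move one way. Of 15 measured, 5 rose and 3 fell, against 7.31% and 3.57% of all genes. The count of 5 was 3 without vehicle replicate 2 or 3. Gadd45a, a growth arrest gene, rose by 0.97 ± 0.20 and the cell death gene Bbc3 by 0.61 ± 0.09 (adjusted p = 0.00429 and 0.000422), whereas Cdkn1a, Rprm and Phlda3 fell by 2.08, 1.27 and 0.41. Rprm encodes an inhibitor of cell division. Of 35 measured cell cycle genes 1 rose, where 7.31% of all genes did. It was Kif11, a mitotic kinesin (0.38 ± 0.12, adjusted p = 0.0491). That call was lost in 16 of 27 alternatives, and the count became 0 without any 1 of vehicle replicates 1 to 4, 110 mg/kg replicates 2 and 3, the 3 arrays of 220 mg/kg and 55 mg/kg replicates 2 and 3, and 2 without 55 mg/kg replicate 1. The proliferation marker Mki67 was not called (0.34, 95% interval -0.12 to 0.80). Among immediate early genes Myc rose by 1.17 ± 0.24 (adjusted p = 0.00438), beside Dusp1, while Egr1 and Egr2 fell. Thus 2 rose and 2 fell of 21 measured, against 7.31% and 3.57% of all genes. The share that rose is near that of all genes. The count that rose was 4 without 55 mg/kg replicate 1, and the count that fell was 1 without vehicle replicate 2, 4 or 5. Each of these counts was 1 with replicate number as a block.

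**Figure D4:**
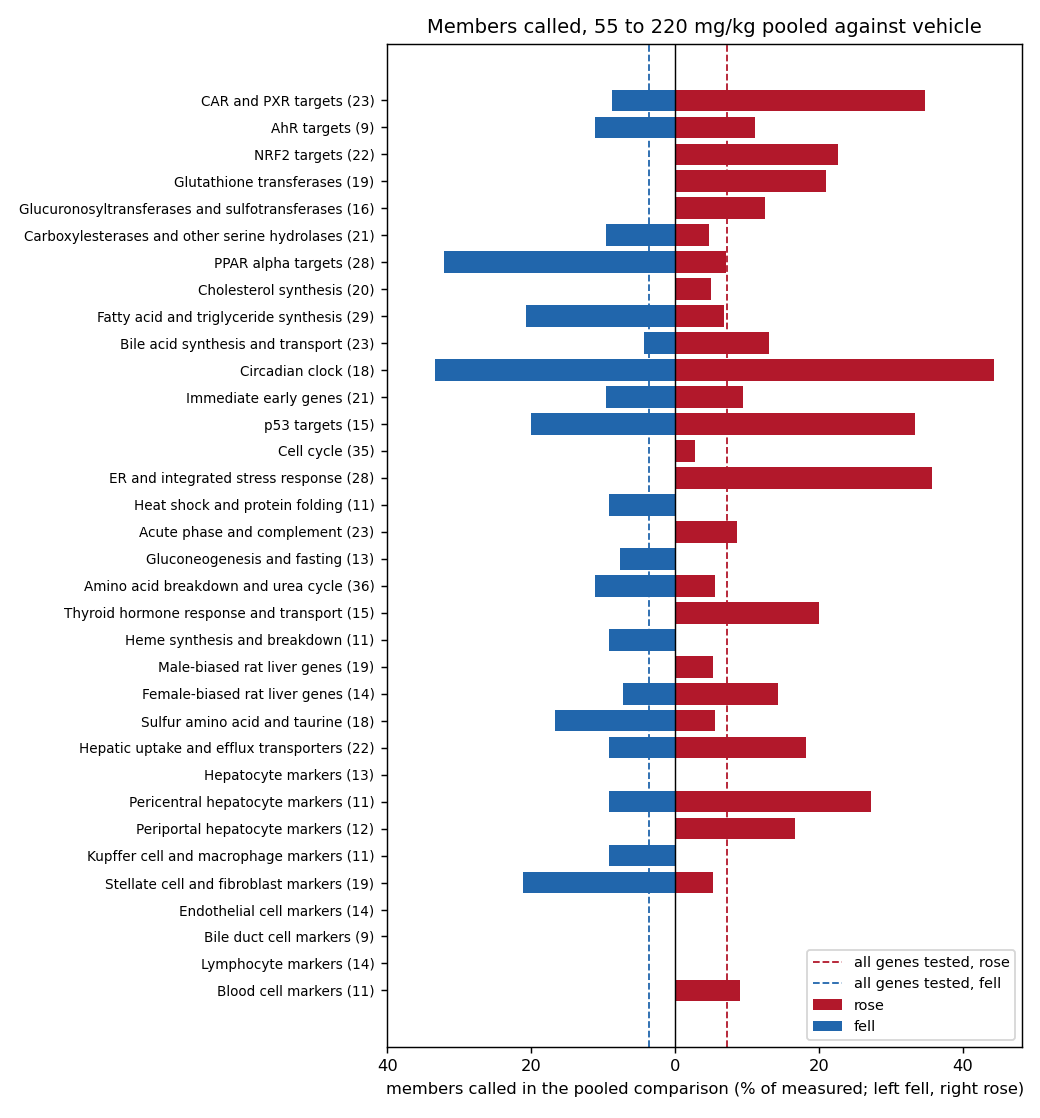
Share of the measured members of each gene list called in the pooled comparison, in % (bars to the right rose, bars to the left fell; number measured in brackets), with dashed lines for all genes tested, 7.31% up and 3.57% down. The clock list reaches furthest in both directions, with 8 and 6 of 18.

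Of the 1546 genes called in the pooled comparison, 691 were called at none of the 3 doses alone, 456 rising and 235 falling. Those of this set that rose most were Fgf21, a fasting and stress hormone (0.98 ± 0.30, adjusted p = 0.0418), and the transcription regulators Vgll4 (0.66 ± 0.17, adjusted p = 0.0218) and Foxp2 (0.65 ± 0.17, adjusted p = 0.0199), followed by Tmem86a, which encodes a lysoplasmalogenase (0.58 ± 0.18, adjusted p = 0.0421). Those that fell most were Igfbp2, a binding protein of insulin-like growth factors (-0.70 ± 0.21, adjusted p = 0.0439), Ndufaf4, an assembly factor of respiratory complex I (-0.66 ± 0.14, adjusted p = 0.00719), Socs2 and Foxa3, a liver transcription factor (-0.63 ± 0.14, adjusted p = 0.00739). In each of these genes the dosed and vehicle arrays overlapped. The calls differed in how far they rested on single arrays or settings. Ndufaf4 kept its call under all 27 alternatives (adjusted p up to 0.033), and Foxa3 lost it in 1, the model of all 6 dose groups (0.111). Fgf21 lost its call in 16 of 27 alternatives, among them without any 1 of vehicle replicates 1, 2, 4 and 5, 110 mg/kg replicates 1 and 3, the 3 arrays of 220 mg/kg and 55 mg/kg replicates 2 and 3 (adjusted p up to 0.137). Igfbp2 lost it in 15, among them without any 1 of vehicle replicates 2, 3 and 4, the 3 arrays each of 110 and 220 mg/kg and 55 mg/kg replicate 1 (up to 0.157). Tmem86a lost it in 18, among them without any 1 of vehicle replicates 1, 2, 3 and 5, 110 mg/kg replicates 1 and 3 and the 3 arrays each of 220 and 55 mg/kg (up to 0.149). Foxp2 lost it in 5, among them without vehicle replicate 1, 2 or 5 or 220 mg/kg (up to 0.0716), and Vgll4 in 4, among them without vehicle replicate 4 or 5 or 220 mg/kg (up to 0.171 over all settings).

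The gene with the smallest p in the F test among doses was Chka, the choline kinase that starts phosphatidylcholine synthesis (unadjusted p = 1.55e-05, limma adjusted p = 0.22). It read 9.17, 9.45 and 9.35 at 55 mg/kg, 9.11, 9.11 and 9.28 at 110 mg/kg and 9.88, 10.05 and 9.94 at 220 mg/kg, against 10.78, 10.72, 11.11, 10.76 and 10.72 in vehicle. The 220 mg/kg arrays lay between the other dosed arrays and vehicle, and the pooled change was -1.34 ± 0.15 (adjusted p = 4.57e-05). The next by the same test, Arhgef26, Gna14, Sertad3, Rassf1 and Coro6, had adjusted p = 0.999 each and were not called in the pooled comparison.

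Markers of the other liver cells were mostly below vehicle by small amounts. All 11 measured Kupffer cell and macrophage markers lay below 0, with a median of -0.21, and 1 fell, where 3.57% of all genes did. It was the scavenger receptor gene Cd163 (-0.39 ± 0.09, adjusted p = 0.00948). The count that fell was 3 without 55 mg/kg replicate 1. In the model of all 6 dose groups it was 0, and limma's adjusted p for Cd163 was 0.0875. The mean level over the list was 9.58 to 10.51 on the pooled-dose arrays and 9.89 to 10.30 on the vehicle arrays, which overlapped. Of 19 stellate cell and fibroblast markers 16 lay below 0 (median -0.24) and 4 fell, where 3.57% of all genes did. These were Acta2, Lrat, Pdgfra and Pdgfrb, which fell by 0.44, 0.45, 0.34 and 0.32. Lrat lost its call without any 1 of vehicle replicates 1 to 4, 110 mg/kg replicate 3, 220 mg/kg replicates 1 and 3 and 55 mg/kg replicates 2 and 3 (adjusted p up to 0.108). The pericyte gene Rgs5 rose by 0.34, a count of 1 rising that is near the 7.31% of all genes. That count was 0 without any 1 of vehicle replicates 1 to 4, 110 mg/kg replicates 2 and 3, 220 mg/kg replicate 2 and 55 mg/kg replicates 2 and 3. Of 14 endothelial markers 12 lay below 0 (median -0.21) with 0 called by limma and 4 below vehicle at an unadjusted p under 0.05, and the count that fell was 3 without 110 mg/kg replicate 1 and 1 without 55 mg/kg replicate 1. Of 14 lymphocyte markers 12 lay below 0 (median -0.06) with 0 called by limma and 3 below vehicle at an unadjusted p under 0.05, and 1 fell without 110 or 220 mg/kg replicate 1. Fewer cells of a type and less RNA per cell cannot be told apart in these bulk samples. Over all genes 7207 changes lay above 0 and 7010 below. The part of cell makeup in the results above was not tested.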

How the data were processed

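Expression was measured in liver RNA on Affymetrix arrays, 1 per sample. The authors deposited 1 log2 value per probe set and array, and RMA is the tool named per the submitters' processing notes. Its version is not given in the sources used here, nor are scan dates and batches. That the values are log2 was read from their range. RMA in general equalises the distributions of arrays, so differences in total RNA are removed and low signals compressed. Of 31099 probe sets, 57 controls were set aside, leaving 31042. The platform annotation held by GEO, possibly dated, gave 1 symbol for 20826, several for 436 and none for 9780. The last 2 kinds were left out. RefSeq (GRCr8) matched 20758, with 0 symbols changed. Of the 14217 genes, 4525 had several probe sets. Any pair of arrays had at most 0.0225% of values identical.

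The 9 pooled arrays were compared with the 5 vehicle arrays with limma 3.58.1 (lmFit and eBayes, R 4.3.3), two-sided, with Benjamini-Hochberg adjustment over all genes and calls at an adjusted p under 0.05; signal was not filtered. Each dose was contrasted with vehicle in a model of 4 groups over the 14 arrays, and the F test and trend (dose steps 1, 2 and 3) used the 9 dosed arrays. Quality measures were compared by exact permutation over 2002 splits, with adjustment over the 4 measures. Array number limits the precision. Tables were made in Python 3.11.15 with NumPy 2.4.6 and pandas 2.3.3 and plots with matplotlib 3.10.9, and the fits were tested on simulated data. Grouping followed the dose in the titles, whose value of 440 mg/kg is used where the design text gives a slightly different one.

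The pooled group, the 34 gene lists (546 of 627 members measured) and the tests were chosen with earlier results of these data known. The rule named the 12 largest called increases and decreases, up to 2 called members per list, a set of drug, lipid, clock and stress genes, the 6 smallest p in the F test, and 4 genes each way called only when pooled. That gave 91 genes, 25 with several probe sets and none with another probe set called the opposite way; 17 rising and 1 falling uncharacterised entries were not named. Other list members named were chosen after their values were seen. Ugt1a1, Cyp2b1 and Cyp2b2 have no single-gene value here. Alternatives were the mean of probe sets, median centring, a filter on dim genes, limma's trend and robust options, array weights, a replicate block, a beta-actin quality covariate, other group models, and each array or dose left out.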

Additional observations from a re-analysis of the deposited data

Results flagged for a closer look

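Among the 91 named genes, each group of arrays was checked for 1 array lying far outside the others, and 11 of 182 groups had one, where chance flags about 1 in 20 groups. In the 9 pooled-dose arrays there were 2. Dusp1 read 14.127 on 110 mg/kg replicate 1, where the next highest array read 12.306. Tmem86a read 8.2447 on 110 mg/kg replicate 2, and the next lowest array 9.0205.

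In the 5 vehicle arrays there were 9, of which 4 came from vehicle replicate 2 and 3 from vehicle replicate 1. On vehicle replicate 2 the values were 7.7246 for Nr1d1, 9.1806 for Nr1d2 and 10.863 for Hsd17b2, each the highest vehicle value, and 7.4697 for Rprm, the lowest. In all 4 genes this array lay on the side of the dosed arrays, yet outside their range. On vehicle replicate 1, Cth (13.725) and Socs2 (8.2832) were highest and Rassf1 (7.3602) was lowest. Vehicle replicate 3 had the highest Chka (11.105), and vehicle replicate 5 the lowest Angptl4 (10.874).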

How the results depend on the processing

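Leaving out 1 array in turn gave 684 to 1052 rising and 307 to 540 falling genes in the pooled comparison, both lowest without vehicle replicate 4. It gave 161 to 601 calls at 55 mg/kg, 267 to 673 at 110 mg/kg and 244 to 619 at 220 mg/kg. Without the 110 mg/kg group 320 genes fell. With the replicate number as a block the pooled comparison called 621 rising genes, 55 mg/kg 332 and 220 mg/kg 385. The labels do not say that a number marks anything shared. Same-numbered samples deviated together weakly (18 pairs, r from -0.02 to 0.289), and 9 of 12 samples correlated best with their own number, a hint from the data and not from the design. Array weights gave 1195 calls at 220 mg/kg. Each other alternative left these counts within 1.5 times, and the cause was not tested. By the F test and the trend limma called 0 genes under every alternative run, with 370 to 630 and 597 to 845 at an unadjusted p under 0.05 when 1 array was left out. Of the 72 named genes called, 38 kept their call under all 27 alternatives, 34 lost it in at least 1, and none changed sign. Of 19 not called, 7 passed under at least 1. Among these, Hmox1 and Nqo1 passed only in the exact permutation test, which was scored at an unadjusted p under 0.05. The limits are 5 vehicle arrays that serve every comparison, and compression of low signals by RMA.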

Other observations

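Cyp7a1, whose enzyme limits the rate at which bile acids are made, read 11.11, 12.29 and 12.94 (lowest, median and highest) at the pooled doses, against 10.54, 9.74, 11.55, 11.82 and 11.38 in vehicle. The ranges overlapped, and Cyp7a1 rose by 1.19 ± 0.32 (limma adjusted p = 0.0253), a call lost without vehicle replicate 1 or 2, without 55 or 110 mg/kg, with array weights and with limma's trend and robust options (adjusted p up to 0.112 over all alternatives). It was 1.42, 1.61 and 0.53 above vehicle at 55, 110 and 220 mg/kg. Cyp8b1, the enzyme that directs synthesis to cholic acid, rose by 0.82 ± 0.14 (adjusted p = 0.00129), with no overlap and with 1.02, 0.83 and 0.61 at the 3 doses. In all, 3 of 23 measured genes of bile acid synthesis and transport rose, and 1 fell, the phospholipid transporter gene Abcb4; 0 fell without vehicle replicate 2, 110 mg/kg or 220 mg/kg, and 1 rose without 55 or 110 mg/kg. Over all genes 7.31% rose and 3.57% fell, so the count that fell is near the background.

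Of 18 measured sulfur amino acid and taurine genes 3 fell, Slc6a6 and the transsulfuration enzymes Cth (by 0.66 ± 0.10, adjusted p = 0.000534) and Cbs (by 0.37 ± 0.10, adjusted p = 0.0223), and 1 rose, the methionine adenosyltransferase gene Mat1a (0.17). The Cbs call was lost without vehicle replicate 3, 4 or 5, without 110 or 220 mg/kg and with the replicate block, and without 55 mg/kg the count that fell was 6. Over all genes 3.57% fell and 7.31% rose, so the count that rose is near the background. It was 0 without any 1 of vehicle replicates 1, 2, 4 and 5, 110 mg/kg replicates 1 and 3, 220 mg/kg replicate 3 and the 3 arrays of 55 mg/kg, and without any 1 dose. Of 15 thyroid hormone genes 3 rose, where 7.31% of all genes did, among them the receptor gene Thrb (0.49 ± 0.07, adjusted p = 0.000403). Klf9 also rose (0.57 ± 0.16, adjusted p = 0.0283), but its other probe sets, at -0.07 and 0.05, were not called, and the call was lost without vehicle replicate 1, 2 or 5 or 220 mg/kg, with the mean of probe sets and with the replicate block. In that list 1 gene fell without 55 mg/kg or its replicate 2 or 3. Serpina7, the thyroxine-binding globulin gene, was not called (-0.35, 95% interval -0.85 to 0.15). Avpr1a, a vasopressin receptor gene and pericentral marker, fell by 1.20 ± 0.11 (adjusted p = 2.92e-06), with 9.90, 10.08 and 10.48 at the pooled doses against 11.20, 11.23, 11.55, 11.38 and 11.36 in vehicle. Of the 11 measured pericentral markers it was the 1 that fell, and 3 rose, against 3.57% and 7.31% of all genes. Those that rose were Cyp7a1, Slc1a2 (0.40, adjusted p = 0.0496) and Lgr5 (0.26, adjusted p = 0.0462). Lgr5 was read at a low level, with overlapping ranges. It read 4.57, 4.91 and 5.13 at the pooled doses, against 4.55, 4.63, 4.69, 4.53 and 4.75 in vehicle. The count that rose was 0 without vehicle replicate 1 or 2 or without 55 or 110 mg/kg. It was 1 without vehicle replicate 3 or 4, replicate 2 of 110 or 220 mg/kg, or any 1 array of 55 mg/kg. The count that fell was 2 without 55 mg/kg or any 1 of its arrays. The iron hormone gene Hamp rose by 0.39 ± 0.07 (adjusted p = 0.00117) and the acute phase gene Orm1 by 0.53 ± 0.12 (adjusted p = 0.0108), 2 of 23 acute phase and complement genes (1 without 55 mg/kg), a share near the 7.31% of all genes. Of 20 measured cholesterol genes 1 rose, where 7.31% of all genes did. It was the sterol carrier gene Stard4 (0.65 ± 0.10, adjusted p = 0.000799), whose other probe sets were not called. The count that rose was 2 without 55 mg/kg and 3 without its replicate 1, and 3 fell without vehicle replicate 2 or 55 mg/kg replicate 2 and 1 without 220 mg/kg replicate 3. Of 19 male-biased liver genes 1 rose, Hsd17b2, where 7.31% of all genes did. The male-specific Cyp2c11 was not called (-0.04, -0.17 to 0.09). Of 14 female-biased liver genes 2 rose and 1 fell, against 7.31% and 3.57% of all genes. Those that rose were Cux2 (0.83 ± 0.25, adjusted p = 0.041) and Trim24 (adjusted p = 0.0323), calls lost in 15 and 9 alternatives. The count that rose was 0 without any 1 of vehicle replicates 1 to 4 and 220 mg/kg replicates 2 and 3. It was also 0 without the 110 mg/kg group or with replicate number as a block.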
